A study of Xenopus laevis with 18 samples.

Results

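The cytosolic ribosomal protein genes of Xenopus laevis were followed in embryos injected with Gam1 mRNA or with water. Members were the probe sets with a single gene symbol that, without the final .L or .S, begins with rpl or rps and then a number, p0, p1, p2 or a, as in rplp0 and rpsa, with the rps6k kinase genes left out. The rule took 142 of the 23630 probe sets tested, which stand for 88 gene symbols and 70 proteins. By name, 86 probe sets belong to 44 proteins of the large subunit and 56 to 26 proteins of the small subunit. These counts include the paralogs rpl7l1 and rpl22l1. They also include the symbol rps28p9.S, whose 2 probe sets had low means of 4.09 and 5.09. X. laevis carries 2 subgenomes, so that many genes exist as an L and an S copy.

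Ribosomal proteins are the protein part of the ribosome, and each ribosome carries close to one molecule of most of them, so cells make them in matched amounts. Their mRNAs are among the most abundant in growing cells and begin with a pyrimidine tract, the terminal oligopyrimidine motif (TOP), through which their translation is tuned to nutrients and growth. The Xenopus egg is stocked with maternal ribosomes, and the embryo accumulates its own ribosomal protein mRNAs once zygotic transcription has begun.

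One-cell embryos received 0.5 ng of Gam1 mRNA or 9.2 nl of water. Gam1 is an adenoviral protein that brings about the loss of the SUMO-activating enzyme, and with it most SUMOylation. Because the controls were given water alone, what Gam1 did and what injected RNA did cannot be told apart. Whole embryos, 20 pooled per sample, were taken at early gastrula (9 h after fertilization), late gastrula (13.5 h) and early neurula (16.5 h), with 3 biological replicates of each injection at each stage and 18 arrays in all. Levels are log2 signals of Affymetrix arrays as the authors normalized them, on a scale whose lowest value was 2.07, whose median was 7.71 and whose highest value was 16.13 in every array, so a difference of 1 is a 2-fold change in signal. Because every array was brought to the same distribution, a level shows the place of a probe set's signal among all others on its array. It does not give the amount of an mRNA per embryo. In whole embryos, fewer cells with an mRNA and less of it per cell cannot be told apart. As a check of the stage labels, neurula markers were compared between early neurula and early gastrula water embryos. All 24 of their probe sets had a higher mean at early neurula (median change 5.73). Early zygotic markers, genes switched on first by the embryo, had 20 probe sets. Over the same span 15 of these had a lower mean and 5 a higher one (median change -1.695).

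Ribosomal protein probe sets were for the most part already bright at early gastrula, and their median rose as gastrulation proceeded. The median of the 142 members stood at 10.46, 10.89 and 11.02 in the 3 Gam1 arrays of early gastrula, against 10.53, 10.77 and 10.93 in the water arrays. At late gastrula it was 12.26, 12.47 and 12.31 in Gam1 arrays, against 12.69, 12.50 and 12.30 in water arrays. At early neurula it was 12.72, 12.86 and 12.99 in Gam1 arrays, against 12.89, 12.92 and 13.07 in water arrays. Within either injection the 3 stages did not overlap in this median, whereas Gam1 and water arrays overlapped at each stage. Seen against all probe sets, the median member lay between the 81.5th and the 86.7th percentile in early gastrula arrays, between the 94.8th and the 96.5th in late gastrula arrays, and between the 96.6th and the 97.6th in early neurula arrays.

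**Figure D1:**
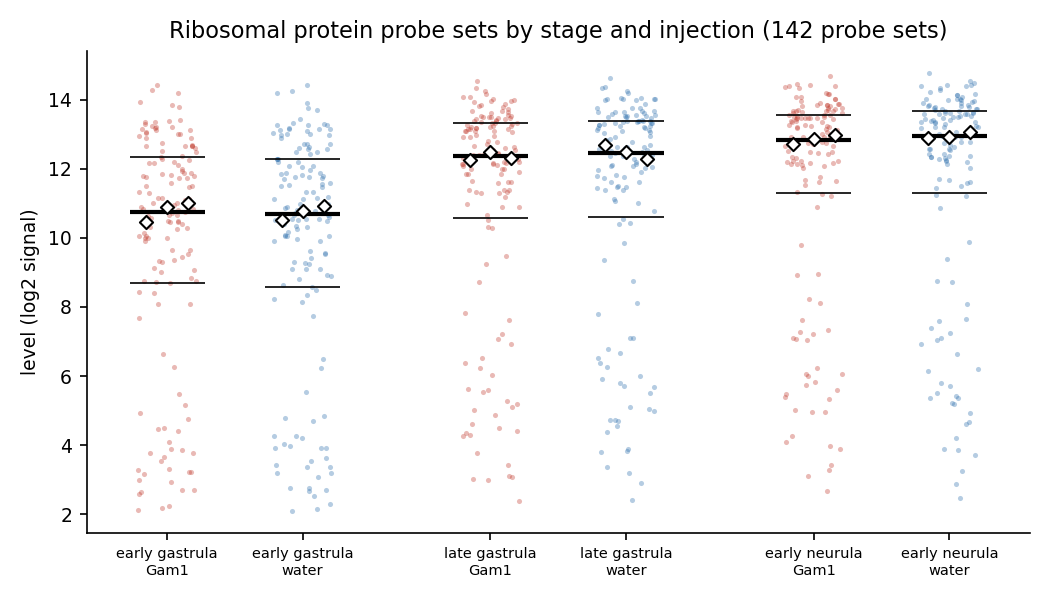
Level (log2 signal) of the 142 ribosomal protein probe sets in each group, Gam1 beside water at each stage. Each point is the mean of 3 arrays for 1 probe set, lines mark the quartiles and the median over the probe sets, and diamonds give the median of each of the 3 arrays; the group medians lie at 10.74 in Gam1 and 10.70 in water embryos of early gastrula, at 12.37 and 12.47 in those of late gastrula, and at 12.85 and 12.94 in those of early neurula.

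The members spread over nearly the whole scale. The brightest over all 18 arrays were rps29.S (probe set Xl2.2525.1.S1_a_at, mean 14.53), rps18.L (14.38), rpl3.L (Xl2.8842.3.S1_a_at, 14.33), rpl27.S (14.01) and a second probe set of rps29.S (14.01). The dimmest were rps15a.S (2.36), rps27.S (Xl2.25553.2.S1_at, 2.99), rpl29.S (2.99), a second probe set of rpl36.L (3.08) and one of rpl18.S (3.35), all close to the lower end of the scale. Dim probe sets were mostly second ones: 24 members had a mean below 6, and 18 of these shared their symbol with a member at 6 or more. Of the 32 symbols with more than 1 probe set, 19 had probe sets whose means differed by more than 6. A dim probe set can thus belong to a gene that another probe set shows as bright, so the order of probe sets by signal is not an order of genes by mRNA.

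During gastrulation of water embryos, 121 of the 142 members, of 83 symbols, rose from early to late gastrula in limma with Benjamini-Hochberg adjustment at 0.05. Over all probe sets 24.0% were called higher in this step and 29.6% lower, whereas 0 members were called lower. The median change of the members was 1.41, a 2.66-fold rise, beside a median of -0.09 over all 23630 probe sets. Only 6 members had a mean change below 0. At an unadjusted p under 0.05 there were 124 higher and 0 lower members, beside 6207 higher and 7788 lower of all probe sets. A member was called lower in this step in some other fits, namely rps12.S (Xl2.8225.2.S1_a_at, -0.21) with a spread taken over all stages and rps27.S (Xl2.25553.2.S1_at) without early gastrula water replicate 1. From early gastrula to early neurula 128 members rose and 0 were called lower, beside 29.0% higher and 37.0% lower of all probe sets. With the replicate number as a block, 2 members were called lower over this span, rps10.L (Xl2.22629.1.S1_at, -0.98, adjusted p = 0.00414) and rps27.S (Xl2.25553.2.S1_at, -0.22, adjusted p = 0.0388). That fit called 17509 of all probe sets in either direction. No share of lower calls over all probe sets is given for these other fits. The members had a median change of 1.70, or 3.24-fold, and 107 members had a change of at least 1, 62 one of at least 2 and 22 one of at least 3.

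Both subunits took part. From early to late gastrula 74 of 86 large subunit members rose with a median of 1.34, and 47 of 56 small subunit members rose with a median of 1.48. The 18 probe sets left out because they carry several symbols, among them a ribosomal protein symbol, all rose in the same step, with a median of 1.31. Both probe sets of fau.L, which encodes the small subunit protein rps30 as a fusion and whose symbol the rule does not take, also rose, by 1.47 ± 0.22 and 0.94 ± 0.23 (SE).

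rpl8.S encodes a large subunit protein close to the catalytic centre, and its course was typical of the stronger rises. Its level was 9.68, 10.58 and 10.94 in the water arrays of early gastrula, 12.97, 12.69 and 12.68 in those of late gastrula, and then 13.31, 13.24 and 13.47 by early neurula. The early gastrula arrays lay below those of both later stages. The change from early to late gastrula was 2.38 ± 0.29 (SE, adjusted p = 0.000319), a 5.21-fold rise.

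Among members with a level of 6 or more at early gastrula, the largest rise in the first step was that of rps21.S, a small subunit protein, in Xl2.29265.1.S1_at. It stood at 8.49, 8.76 and 9.46 in early gastrula water arrays, at 12.56, 12.26 and 12.05 at late gastrula, and at 12.81, 12.64 and 12.90 at early neurula. Early and late gastrula did not overlap, with a change of 3.38 ± 0.25 (adjusted p = 3.19e-05), or 10.4-fold. rpl35a.S, a large subunit protein whose human counterpart is mutated in some families with Diamond-Blackfan anaemia, rose almost as far in its probe set Xl2.29223.1.S1_a_at, by 3.14 ± 0.21 (adjusted p = 2.37e-05).

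The only larger rise came from a probe set that was dim at early gastrula. For rps9.S, a protein near the mRNA entry of the small subunit, Xl2.45347.3.S1_at had 8.32, 8.02 and 7.97 in late gastrula water arrays, against 3.88, 3.83 and 4.07 in early gastrula ones, a change of 4.18 ± 0.22 (adjusted p = 8.31e-06). The other rps9.S probe sets, Xl2.45347.2.S1_a_at and Xl2.45347.2.S1_x_at, rose by 2.85 ± 0.24 and 2.66 ± 0.21. The separate probe set annotated rps9 without a copy letter rose by 1.97 ± 0.12. All 4 rps9 and rps9.S probe sets thus rose, by different amounts. Among other probe sets that were dim at early gastrula, rpl10a.S (Xl2.55632.1.A1_at) rose by 3.23 ± 0.39 and rps25.S (Xl2.23700.3.S1_at) by 2.97 ± 0.65. rps6.L (Xl2.2008.1.S2_at, for the protein phosphorylated by S6 kinase) rose by 3.01 ± 0.47 and rpl37.S by 2.86 ± 0.31. Brighter probe sets of rpl10a.S and rps25.S rose less. From early gastrula to early neurula the 2 of rpl10a.S rose by 1.45 and 4.17, and the 4 of rps25.S by 0.58 to 3.04.

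At the other end, several of the brightest probe sets moved little. rps18.L, a protein of the head of the small subunit, was 14.30, 14.51 and 14.44 in early gastrula water arrays, 14.28, 14.37 and 14.33 in those of late gastrula, and then 14.35, 14.42 and 14.45 by early neurula. Its change from early gastrula to early neurula was -0.01 ± 0.07 (adjusted p = 0.95). rpl27.S rose by 0.23 ± 0.07 over the same span (adjusted p = 0.0269). One probe set of rpl35.L, a protein beside the exit of the peptide tunnel, had a change of 0.15 ± 0.11 (Xl2.46988.1.S1_at, adjusted p = 0.232). These members were at 13 or above from the start, where only 2.50% of all probe sets lay in early gastrula water embryos.

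Among brighter probe sets, those with a higher signal at early gastrula had smaller rises. The level was taken from the Gam1 arrays of early gastrula and the change from the water arrays, so that no array entered both. This does not keep signal and change fully apart. At early gastrula, deviations from the group means correlated between Gam1 and water arrays of the same number (r between 0.904 and 0.941). The 37 members with a level from 9 up to 11 had a median change of 2.54 from early gastrula to early neurula, and all 37 were called higher. The median was 1.43 for the 44 members from 11 up to 13, of which 43 were called higher, and 0.52 for the 21 members from 13 up, of which 17 were called higher. Below 11 no such order was seen, as the 12 members from 6 up to 9 had a median of 2.45, with 9 called higher, and the 28 members below 6 had one of 2.04, with a wide range between -0.22 and 4.82. Over all 142 members Pearson's r was -0.32 and Spearman's rho -0.51, and over the 114 at 6 or more r was -0.60 and rho -0.73. These are different probe sets on the same arrays, several to a gene and unlike in their signal for 1 mRNA. Gam1 and water arrays of 1 number also deviate together, so the coefficients only describe the plot. Over all probe sets the median change at these levels was -0.49, -0.55 and -0.45 for the same 3 ranges from 9 up. Of all probe sets in these ranges, 23.51%, 20.03% and 15.66% were called higher, so the share called also fell with the level there. From 6 up to 9 the median over all probe sets was -0.298, with 27.42% called higher. Below 6 it was 0.146, with 37.87% called higher, beside 22 of the 28 members. Whether bright probe sets approach saturation was not tested.

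**Figure D2:**
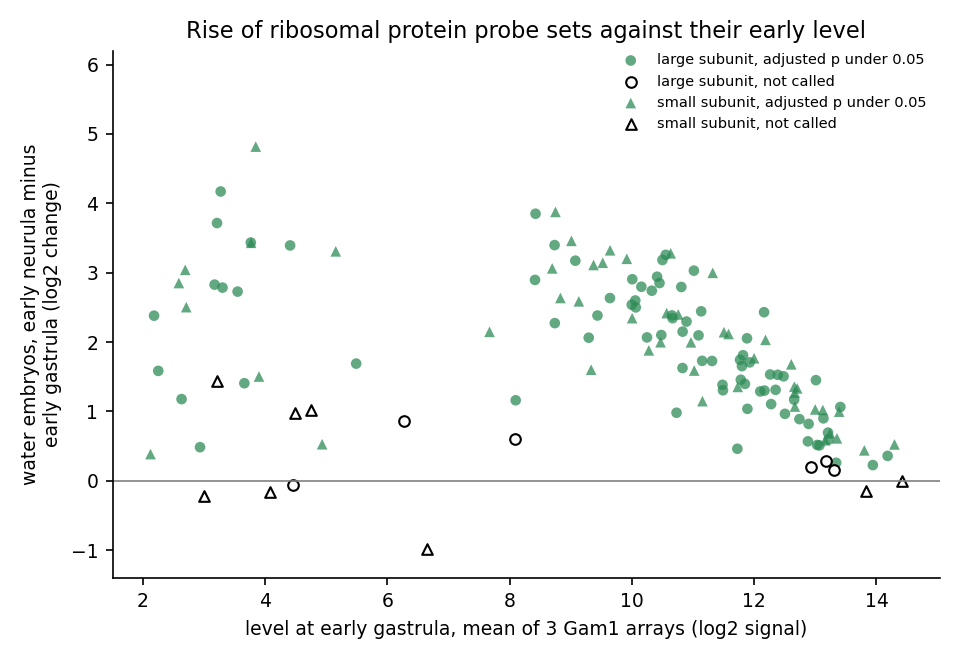
Change in water embryos from early gastrula to early neurula (log2, vertical) of each of the 142 ribosomal protein probe sets against its level at early gastrula, taken as the mean of the 3 Gam1 arrays (log2 signal, horizontal). Circles are large and triangles small subunit members, filled where the adjusted p was under 0.05; above a level of 9 the change falls off with the level, from a median of 2.54 between 9 and 11 to 0.52 from 13 up.

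The signals of the members also drew together. Their interquartile range was 3.63 in Gam1 and 3.71 in water embryos at early gastrula, 2.76 and 2.77 in those of late gastrula, and then 2.27 and 2.38 by early neurula. The number of members at 13 or above was 21 in Gam1 and 21 in water embryos at early gastrula, 53 and 56 in those of late gastrula, and then 64 and 67 by early neurula. Of all 23630 probe sets, 605 reached that level in early neurula water embryos.

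Most of the rise lay in the first step. Among the 107 members with a change of at least 1 over the whole course, the change up to late gastrula exceeded the change after it in 105, and the median share of the first step was 79.5%. From late gastrula to early neurula the median change was 0.34, with 136 of 142 members above 0, but only 2 members were called higher and 0 lower, beside 4.09% higher and 3.69% lower of all probe sets. At an unadjusted p under 0.05, 49 members were higher and 0 lower, beside 2893 higher and 3521 lower of all 23630 probe sets.

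The 2 members called were rpsa.L and rpl4.S. rpsa.L, a small subunit protein also known as the laminin receptor precursor, stood at 11.51, 11.46 and 11.91 in early neurula water arrays against 10.82, 10.56 and 10.26 at late gastrula, a change of 1.08 ± 0.19 (adjusted p = 0.0249). rpl4.S, whose protein reaches into the peptide tunnel, stood at 12.43, 12.27 and 12.57 in early neurula water arrays against 11.82, 11.48 and 11.24 in late gastrula ones, a change of 0.91 ± 0.20 (adjusted p = 0.0379). Neither gene overlapped between the stages. With the replicate number as a block, 3 members were called higher (6.83% of all probe sets), and with the block and a spread taken over all 18 arrays 42 members were called higher (12.8% of all probe sets). Both fits called 1 member lower, a probe set of rps10.L (Xl2.22629.1.S1_at, -0.87, adjusted p = 0.0385 with the block alone and 0.00456 with both), while the second called the brightest rps10.L probe set higher (Xl2.46691.1.S1_at, 0.45, adjusted p = 0.0157). Without late gastrula water replicate 1, whose member median of 12.69 was the highest at that stage, 15 members were called in the unblocked fit. Without late gastrula water replicate 2 or 3, or early neurula water replicate 1 or 3, 0 were. Of all probe sets, the fit with the block alone called 3890 in either direction and the fit with both 7607. No share over all probe sets is given for lower calls in these fits, nor for the fits without single arrays.

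By position in the ribosome, the P stalk, which recruits elongation factors, rose with 5 of its 6 probe sets from early to late gastrula and had a median of 1.52. rplp1.L rose by 1.69 ± 0.18, rplp2.L by 1.35 ± 0.19, and rplp2.S by 2.10 ± 0.25 and 1.91 ± 0.23 in its 2 probe sets. rplp0.S rose by 0.86 ± 0.19 in Xl2.1728.1.S1_at, while its dimmer probe set had a change of 0.56 ± 0.36 (adjusted p = 0.226). The stalk genes thus rose with the rest, over a range of sizes.

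The genes of the 5S RNP were bright throughout. Their proteins hold 5S rRNA in the large subunit and bind MDM2 when free in mammalian cells. Up to late gastrula each of the 3 probe sets had a change below the member median of 1.41. rpl11.S rose by 0.63 ± 0.15 from early to late gastrula (adjusted p = 0.00782) and rpl5.S by 0.69 ± 0.20 (adjusted p = 0.0184). rpl5.L was 13.48, 13.57 and 13.40 in late gastrula water arrays, against 12.67, 13.48 and 13.33 at early gastrula, so that the stages overlapped, and its change of 0.32 ± 0.20 was not called (adjusted p = 0.219). By early neurula rpl5.L was called higher as well, by 0.59 ± 0.20 (adjusted p = 0.0328). All 3 probe sets were then called higher, beside 29.0% of all probe sets, with a median of 0.90 and up to 1.04 in rpl5.S. Of 17 probe sets for proteins around the peptide exit tunnel 14 rose up to late gastrula, with a median of 1.23, and all 7 probe sets of rps2.L, rps3.L and rps3.S, for proteins at the mRNA entry of the small subunit, rose, with a median of 1.83. The rps9 probe sets are not in this count.

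rpl3.L, a large subunit protein beside the catalytic centre, had 5 probe sets, all bright. By early neurula, 4 of them had risen, by 0.36 to 1.29, and Xl2.8842.3.S1_x_at had a change of 0.19 ± 0.16 (adjusted p = 0.308). rps2.L, at the mRNA entry, rose by 2.69 ± 0.32 and 1.83 ± 0.23 up to late gastrula in its bright probe sets, Xl2.6036.1.S1_a_at and Xl2.5489.1.A1_s_at. Probe sets of 1 gene thus gave different sizes.

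Members that the rule took by name but that are paralogs differed from each other. rpl22l1.L, a paralog of rpl22, was 8.57, 8.45 and 8.88 in early gastrula water arrays, 11.92, 11.34 and 10.90 in those of late gastrula, and then 12.15, 11.81 and 12.13 by early neurula. It rose by 2.75 ± 0.25 in the first step (adjusted p = 8.51e-05). rpl7l1.L, a paralog of rpl7, rose by 0.97 ± 0.11 in one probe set (adjusted p = 0.000197), while a dim second one had a change of 0.10 ± 0.16 (adjusted p = 0.639).

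Both copies of the subgenomes could be compared for 17 proteins, each by its brightest probe set. Both changes from early gastrula to early neurula were above 0 in 16 of them, 7 pairs differed by less than 0.5 and 6 pairs by at least 1. The contrast was widest for rps12, a small subunit protein. rps12.L was 9.58, 10.03 and 10.09 in early gastrula water arrays, 12.82, 12.44 and 12.00 in those of late gastrula, and then 13.12, 13.02 and 13.15 by early neurula, a total change of 3.20 ± 0.22 (adjusted p = 1.33e-05). rps12.S was 13.79, 13.89 and 13.64 in water arrays of early gastrula, 13.61, 13.49 and 13.58 in those of late gastrula, and then 13.61, 13.49 and 13.77 by early neurula, a total change of -0.15 ± 0.10 (adjusted p = 0.211). The dim second probe set of rps12.S, Xl2.50825.1.S1_at, had a total change of 0.98. By their brightest probe sets the L copy thus rose while the S copy was not called, but these probe sets started at unlike levels. The L minus S difference in change was 3.35 ± 0.38 (SD of 3 replicates) and above 0 in each replicate.

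In rps3a, another small subunit protein, the L copy rose by 3.32 ± 0.27 and the S copy by 1.68 ± 0.19. In rps10 it was the S copy that rose further, by 3.11 ± 0.28 against 1.59 ± 0.17 for the L copy. A second rps3a.S probe set rose by 2.12, and the 3 of rps10.L had changes from -0.98 to 2.50. In both genes the copy that rose further started lower in early gastrula water arrays. rps3a.L was at 8.95, 10.07 and 9.83 there against 12.12, 12.75 and 12.92 for rps3a.S. rps10.S was at 8.58, 9.61 and 9.60 against 10.65, 10.95 and 11.35 for rps10.L. The other 2 of the 5 widest pairs, rpl29 and rpl34, each set a bright L copy against an S probe set with a mean below 6, and so do not compare like with like. These pairs are the widest of 17, chosen by that difference, and were not tested. A probe set ending in _s_at or _x_at can also bind related transcripts, among them the other copy.

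**Figure D3:**
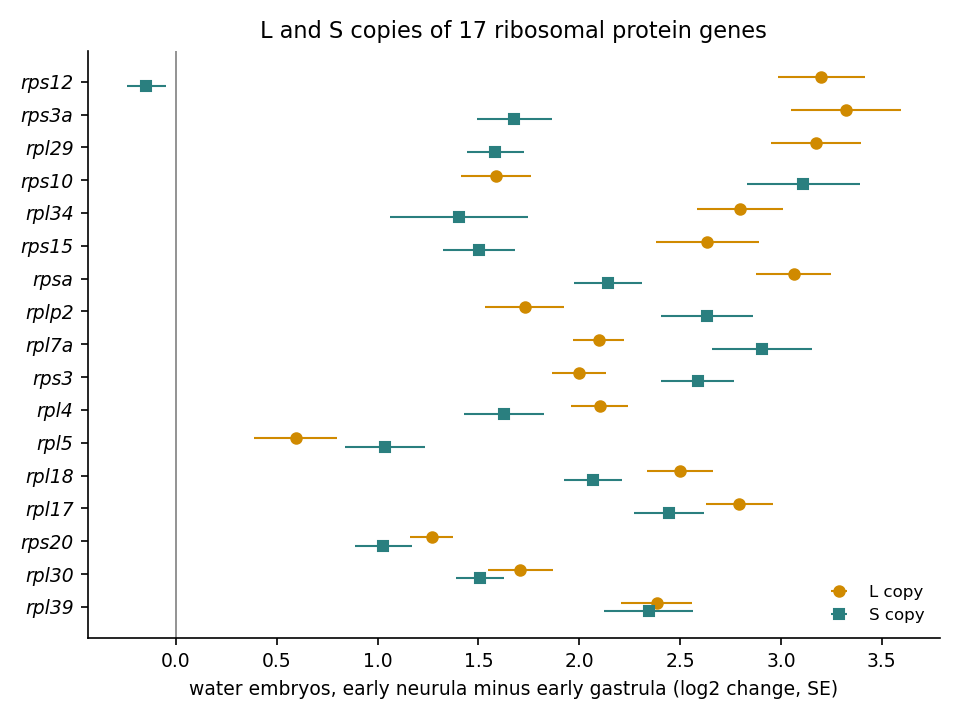
Change in water embryos from early gastrula to early neurula (log2, horizontal) of the L copy (circles) and the S copy (squares) of 17 ribosomal protein genes, each by its brightest probe set, with the SE of the limma fit. The genes are ordered by the difference between the copies, from rps12 at the top (3.20 for L, -0.15 for S) to rpl39 at the bottom (2.38 for L, 2.34 for S).

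Genes with related work were counted in the same step, in which 24.0% of all probe sets were called higher and 29.6% lower. Of 144 probe sets of ribosome biogenesis, the genes that make and process rRNA and assemble subunits, 96 rose (66.7%) and 4 fell (2.78%), with a median of 0.78. Of 31 probe sets of other mRNAs with a TOP motif, such as translation factors, 19 rose (61.3%) and 2 fell (6.45%), with a median of 0.56. Of 58 probe sets of mitochondrial ribosomal proteins, 10 rose (17.2%) and 21 fell (36.2%), with a median of -0.37, shares closer to those of all probe sets. These lists were compared with the members by count and median alone.

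Between Gam1 and water embryos the median differences of the ribosomal protein mRNAs were small. At each of the 3 stages limma called 0 of the 142 members, as it called 0 of all 23630 probe sets. This fit is unpaired, so spread that Gam1 and water arrays of 1 number share stays in its error. Its 0 calls thus do not show that differences are absent. The median change, Gam1 minus water, was 0.02 in early gastrula embryos, -0.11 in late gastrula embryos and -0.07 in early neurula embryos, beside medians within 0.002 of 0 over all probe sets. These medians are at most a 1.08-fold difference. At an unadjusted p under 0.05 there were 0 lower and 0 higher members at early gastrula (0.284% and 0.343% of all probe sets), 2 lower and 0 higher at late gastrula (2.42% and 1.97%), and 1 lower and 2 higher at early neurula (3.22% and 3.44%). With the replicate block these counts were 1 lower and 8 higher at early gastrula, 0.7% and 5.6% of the members (4.54% and 4.52% of all probe sets). In late gastrula embryos they were 4 lower and 1 higher, 2.8% and 0.7% of the members (7.76% and 6.55%). In early neurula embryos they were 17 lower and 5 higher, 12.0% and 3.5% of the members (8.49% and 9.40%). With the block and a spread over all stages they were 0 lower and 6 higher at early gastrula, 0.0% and 4.2% of the members (3.78% and 2.26%). In late gastrula embryos they were then 26 lower and 2 higher, 18.3% and 1.4% of the members (12.3% and 11.7%). In early neurula embryos they were 14 lower and 6 higher, 9.9% and 4.2% of the members (13% and 14%).

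The signs, unlike the calls of the unpaired fit, leaned one way after early gastrula. A mean change below 0 was found in 52 of 142 members at early gastrula (49.4% of all probe sets), in 123 at late gastrula (49.2%) and in 108 at early neurula (51.4%). Members lower in all 3 replicate pairs numbered 10 in early gastrula embryos (15.6% of all probe sets), 49 in late gastrula embryos (22.0%) and 68 in early neurula embryos (24.4%), which are 7.0%, 34.5% and 47.9% of the members. Members higher in all 3 pairs numbered 32 (15.5% of all probe sets), 7 (22.4%) and 11 (22.6%). Members move together on an array, so these counts are not independent events.

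At late gastrula the shift came mainly from 1 pair of arrays. The median difference within the pair was -0.29 in replicate 1, -0.04 in replicate 2 and 0.00 in replicate 3, with 131, 92 and 68 of 142 members lower. Without both arrays of replicate 1 the median change was -0.02, with 90 members lower. At early neurula the pair medians were -0.15, -0.05 and -0.05, with 119, 94 and 100 members lower, and without replicate 1 the median was -0.04. At early gastrula they were -0.01, 0.02 and 0.05. Over the step from early to late gastrula the median difference was 1.37, 1.25 and 0.98 in Gam1 replicates 1, 2 and 3, against 1.76, 1.31 and 1.05 in water replicates 1, 2 and 3, so that water replicate 1 had the largest of the 6. The lean at late gastrula thus rested on replicate 1, while that at early neurula was small and present in each pair.

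**Figure D4:**
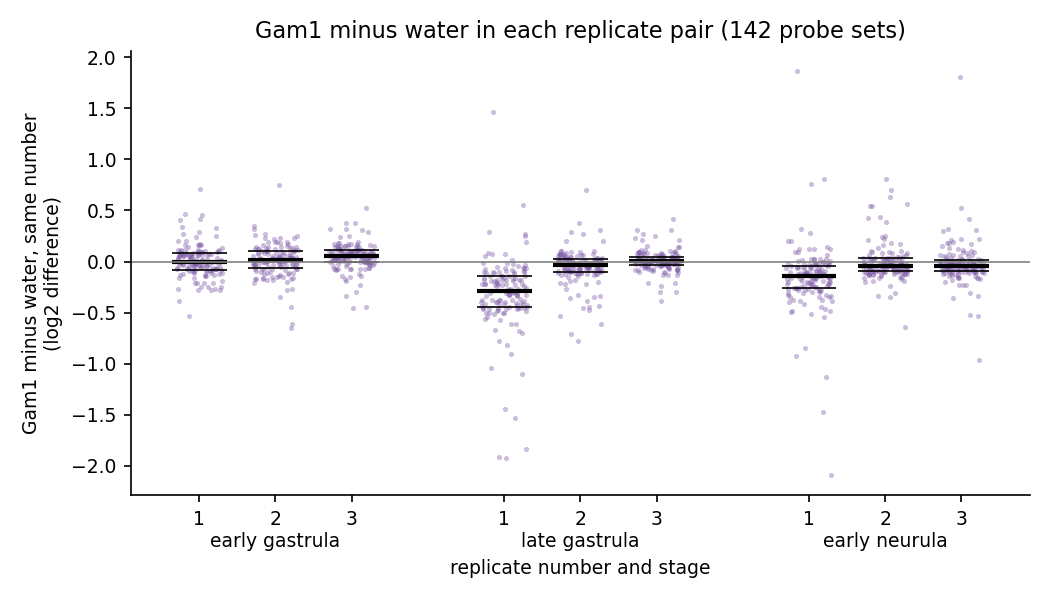
Gam1 minus water difference (log2) of each of the 142 ribosomal protein probe sets within each pair of arrays with the same replicate number, by stage. Lines mark the quartiles and the median; the median was -0.29 in replicate 1 of late gastrula and -0.15 in replicate 1 of early neurula, and between -0.05 and 0.05 in the other 7 pairs.

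Markers of developmental stage were set beside this lean. The 24 neurula marker probe sets had a median change of -0.63 in Gam1 embryos at late gastrula, with 23 below 0, and of -0.54 at early neurula, with 20 below 0. In replicates 1, 2 and 3 their median difference was -0.51, -0.56 and -0.39 at late gastrula. The 20 early zygotic marker probe sets, of genes switched on first by the embryo, had pair medians of 0.52, 0.00 and -0.004 in late gastrula embryos and of 0.36, 0.13 and 0.04 in early neurula embryos, with replicate 1 the farthest from 0 at both stages, as for the members. In water embryos their median change was -0.79 over the step from early to late gastrula, with 15 below 0 and 5 above 0. Their mean change in Gam1 embryos was above 0 in 12 and below 0 in 8 at late gastrula. At early neurula it was above 0 in 13 and below 0 in 7. Ribosome biogenesis leaned the same way as the members, with 121 of 144 probe sets below 0 and a median of -0.17 at late gastrula, and 125 below 0 and a median of -0.17 at early neurula. Its pair medians were -0.37, -0.11 and -0.04 in late gastrula embryos, with -0.22, -0.07 and -0.15 in early neurula embryos. Mitochondrial ribosomal proteins had medians of 0.06 and 0.07. Other mRNAs with a TOP motif had a median of -0.005 at late gastrula, with 16 of 31 probe sets below 0. At early neurula their median was -0.015, with 18 of 31 below 0. At early gastrula both marker lists were mostly below 0 in Gam1 embryos, unlike the members, of which 52 of 142 were. There 18 of 24 neurula marker and 15 of 20 early zygotic marker probe sets were below 0, each list with a median of -0.12. The part of developmental timing in the lean of the members was not tested.

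At early gastrula the members with the smallest p were small or dim changes. rps3.L (Xl2.55093.1.A1_x_at), at the mRNA entry, averaged 10.47 in Gam1 and 10.34 in water embryos, without overlap, a change of 0.13 ± 0.07 (adjusted p = 1). rpl14.S had a change of 0.15, rpl35.L one of 0.16 and rpl22.S one of 0.21, each higher in 3 of 3 pairs with overlapping groups. On the lower side all 5 were probe sets with means below 6, of which rpl7a.L (Xl2.47887.1.A1_at) had the largest change (-0.38 ± 0.20, adjusted p = 1).

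Among later single members, rps9 without a copy letter stood out on the higher side. Its level was 13.12, 12.83 and 12.78 in late gastrula Gam1 embryos against 12.83, 12.56 and 12.53 in water embryos, a change of 0.27 ± 0.13 (adjusted p = 1), higher in each pair though the groups overlapped. At early neurula it was 13.31, 13.13 and 13.32 in Gam1 embryos against 13.03, 13.06 and 13.11 in water embryos, without overlap, a change of 0.19 ± 0.07 (adjusted p = 0.732). With the replicate block and a spread over all stages the adjusted p was 0.0506 in late gastrula embryos and 0.0983 in early neurula embryos. The 3 probe sets of rps9.S had changes between -0.51 and -0.03 at these stages, and 0 of them were called.

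rps12.S, bright at all stages, was at 13.70, 13.69 and 13.65 in late gastrula Gam1 embryos against 13.61, 13.49 and 13.58 in water embryos. The groups did not overlap, and the change was 0.12 ± 0.06 (adjusted p = 1). Smaller positive changes at late gastrula that completed the 5 with the smallest p were those of rps27.S (0.10) and of 2 rpl35.L probe sets (0.07 and 0.06). These mRNAs are among those that changed little over the course.

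On the lower side at late gastrula, rpl14.S, a large subunit protein, was at 9.29, 9.60 and 9.57 in Gam1 embryos against 9.70, 9.95 and 9.86 in water embryos in its probe set Xl2.24912.1.A1_at. The groups did not overlap, and the change was -0.36 ± 0.13 (adjusted p = 1). Its brighter probe set Xl2.2862.1.S1_at had a change of -0.12 ± 0.16, with overlap. rpl13.S was at 12.18, 12.24 and 12.16 in Gam1 embryos against 12.55, 12.29 and 12.29 in water embryos, a change of -0.18 ± 0.09 (adjusted p = 1). rpl3.L (Xl2.8842.3.S1_a_at) was at 14.19, 14.28 and 14.26 in Gam1 embryos against 14.38, 14.40 and 14.32 in water embryos, a change of -0.13 ± 0.05 (adjusted p = 1). Xl2.24912.1.A1_at, rpl13.S and rpl3.L were each lower in 3 of 3 pairs. With Xl2.24912.1.A1_at, the other member at an unadjusted p under 0.05 was rpl29.S (-0.35 ± 0.09, adjusted p = 0.801), at 2.88 to 3.17 in Gam1 embryos against 3.30 to 3.42 in water embryos, near the floor of the scale, as was the fifth of these, a dim rpl18.S probe set (-0.79 ± 0.38, adjusted p = 1).

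On the higher side at early neurula, rps15a.S, a small subunit protein, was at 2.77, 2.55 and 2.66 in Gam1 embryos against 2.45, 2.51 and 2.48 in water embryos, without overlap but near the floor of the scale, a change of 0.18 ± 0.06 (adjusted p = 0.667). With rps9 it made up the 2 higher members at an unadjusted p under 0.05, and the lower one was a single probe set of rps25.S. At early neurula the lower members with the smallest p were rps25.S, rpl35a.S, rpl30.S, rpl36.L and rpl4.S. rps25.S (Xl2.23700.2.S1_x_at) was at 13.49, 13.58 and 13.63 in Gam1 embryos against 13.77, 13.73 and 13.68 in water embryos, without overlap, a change of -0.16 ± 0.06 (adjusted p = 0.708). Its brightest probe set, Xl2.23700.1.S1_x_at, overlapped, at 13.60, 13.63 and 13.76 in Gam1 embryos against 13.67, 13.66 and 13.66 in water embryos. Xl2.23700.1.S1_a_at overlapped but was lower in each pair, at 12.85, 12.79 and 13.02 against 12.87, 12.84 and 13.04. The dim probe set Xl2.23700.3.S1_at overlapped too. rpl35a.S (Xl2.29223.1.S1_x_at) was at 13.25, 13.57 and 13.58 in Gam1 embryos against 13.79, 13.65 and 13.75 in water embryos, also without overlap, a change of -0.27 ± 0.11 (adjusted p = 0.759). rpl4.S was at 12.07, 12.11 and 12.33 in Gam1 embryos against 12.43, 12.27 and 12.57 in water embryos, overlapping but lower in each pair, a change of -0.25 ± 0.11 (adjusted p = 0.781).

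**Figure D5:**
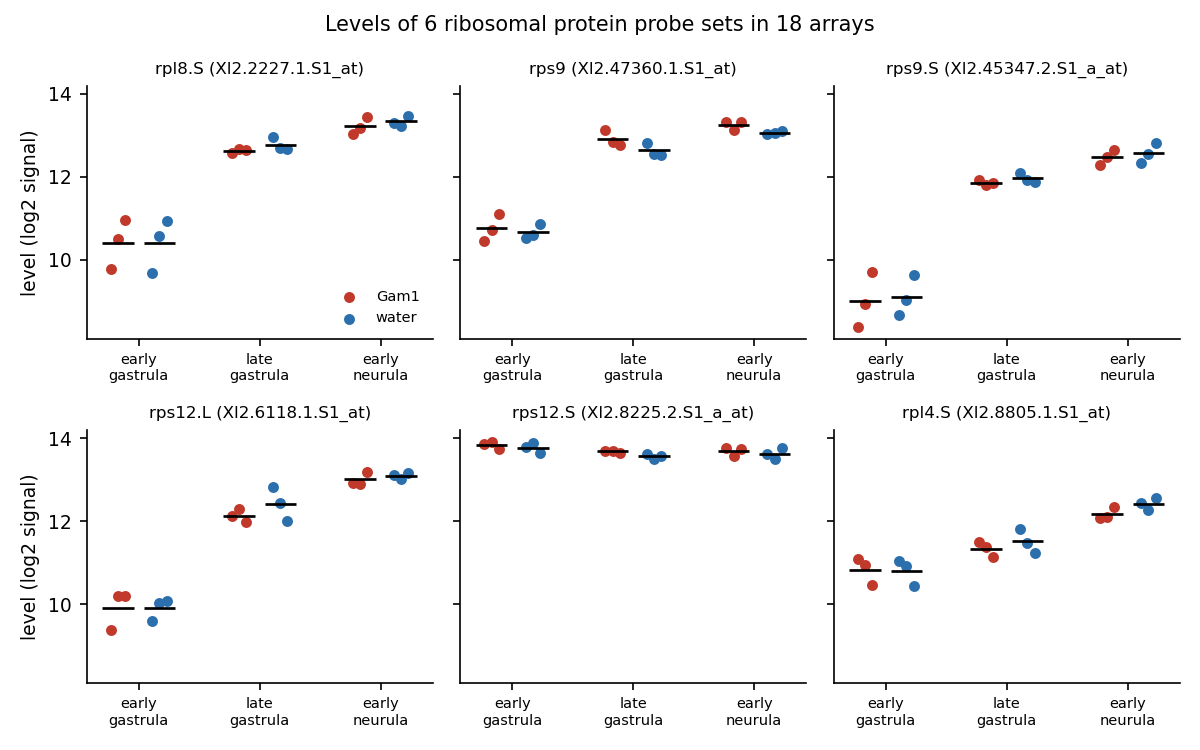
Level (log2 signal) of 6 ribosomal protein probe sets in each of the 18 arrays, Gam1 (red) left of water (blue) at each stage, with lines at the group means of 3. rpl8.S, rps9, rps9.S, rps12.L and rpl4.S rise over the stages while rps12.S stays between 13.49 and 13.91, and Gam1 and water points lie close together throughout.

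When pairing by replicate number and a spread over all stages were combined, 3 members were called at early neurula, 2 lower (3.47% of all probe sets) and 1 higher (4.53%), where the unpaired fit called 0. At late gastrula this fit called 0 members lower (2.20% of all probe sets) and 0 higher (1.65%). The lower ones at early neurula were rpl4.S (-0.25, adjusted p = 0.0363) and the bright rps2.L probe set Xl2.6036.1.S1_a_at, which was at 14.08, 14.18 and 14.29 in Gam1 embryos against 14.19, 14.33 and 14.49 in water embryos (-0.15, adjusted p = 0.0484). The higher one was also rps2.L, in the dim probe set Xl2.48228.1.A1_at, at 7.05, 5.72 and 5.20 in Gam1 embryos against 5.18, 5.29 and 3.40 in water embryos (1.37, adjusted p = 0.0386). These probe sets of rps2.L thus had changes of opposite sign, and its remaining one had a change of -0.05 ± 0.10. With the block within a stage alone, 0 members were called at any stage.

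Over all members the Gam1 changes at late gastrula ran from -0.91 to 0.70. Some dim named probe sets had wide differences there, with overlapping groups. rps12.L (Xl2.6118.1.S2_at) was at 5.55, 5.56 and 5.47 in Gam1 embryos against 7.38, 6.01 and 5.42 in water embryos. rpl28.L (Xl2.13421.1.A1_at) was at 4.50, 4.69 and 4.61 against 6.41, 5.47 and 4.67. rps2.L (Xl2.48228.1.A1_at) went the other way, at 7.80, 5.90 and 5.41 against 6.34, 5.52 and 5.15. For rpl8.S, the 5S RNP and the P stalk, differences were smaller. rpl8.S was at 12.57, 12.66 and 12.65 in late gastrula Gam1 embryos against 12.97, 12.69 and 12.68 in water embryos, without overlap, and had a change of -0.15 ± 0.10 there and of -0.12 ± 0.13 in early neurula embryos. The 3 probe sets of the 5S RNP had changes between -0.03 and 0.01 at late gastrula, and the 6 of the P stalk between -0.15 and 0.28. Large and small subunit members had medians of -0.13 and -0.09 in late gastrula embryos, and both had a median of -0.07 in early neurula embryos.

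The Gam1 effect was not found to differ between stages for any member. As a contrast in the fit of all 18 arrays, the effect at late gastrula minus that at early gastrula had a median of -0.14 over the members, the effect at early neurula minus that at early gastrula -0.11, and the effect at early neurula minus that at late gastrula 0.02. limma called 0 members in each of the 3 contrasts, with or without the replicate block. Of all probe sets it called 1, 11 and 1 without the block and 45, 231 and 25 with it. At an unadjusted p under 0.05 there was 1 member in each contrast without the block. Of all 23630 probe sets, 214 were then higher and 203 lower in the first contrast, 371 and 358 in the second, and 84 and 107 in the third. With the block there were 12, 13 and 4 members, for which no share over all probe sets is given.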

How the data were processed

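The series matrix holds, as deposited, log2 values of 18 Affymetrix Xenopus arrays that the authors had quantile-normalized. For background correction and probe summarisation no method is given in the sources used here. These log2 values were analysed unchanged. Quantile normalization gives each array the same distribution, which hides any change in total mRNA. Of 23701 probe sets, 71 Affymetrix controls were left out. Genes were named from the platform annotation, in which 12258 probe sets have 1 symbol. The number of arrays limits the precision.

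Groups were compared with limma 3.58.1 in R 4.3.3 (lmFit, eBayes with trend, two-sided, Benjamini-Hochberg over 23630 probe sets, threshold 0.05). Each Gam1 comparison used the arrays of its stage, the course used the water arrays, and stage differences used all 18. The script was tested on simulated data.

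The study's methods tie replicates to separate egg clutches. Deviations from the group means correlated between Gam1 and water arrays of the same number (r between 0.686 and 0.941), so the numbers pair the arrays. Between different numbers r lay between -0.62 and -0.233. Deviations sum to 0 within each group, so these negative values follow from the positive ones and add no support. Whether the pairing comes from clutches or from processing was not tested. Values with the replicate block are given where they change a result.

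Named members were the probe sets of rpl8, rps9, rps2, rps12 and rpl3, those of the 5S RNP, P stalk and paralog lists, the 5 higher and 5 lower members with the smallest p in each Gam1 comparison, the 8 largest called changes in each step of the course (of which examples are given), the 5 widest L and S pairs, and the 5 brightest and 5 dimmest members. Members, lists and rules were chosen with earlier results of these data known. Alternatives were the replicate block, a spread over all stages, both together, the methods' t-test, no trend, filters on level, 1 probe set per gene and leaving out arrays.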

Additional observations from a re-analysis of the deposited data

How the results depend on the processing

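The rise of the members from early to late gastrula and to early neurula kept the direction of its median under each alternative run, with 115 to 123 and 124 to 130 members called without single arrays. These counts include up to 1 member called lower up to late gastrula, which was rps12.S with a spread over all stages, with or without the block, rps19.S in the methods' t-test, and rps27.S without early gastrula water replicate 1, which was also called lower up to early neurula. With 1 probe set per gene, 79 of 88 members were called higher from early to late gastrula. The count of the step from late gastrula to early neurula moved under many settings. It was 2 as reported, 4 with the replicate block, 12 with a spread over all stages and 43 with both. Among members whose mean was at least 6 in either of the compared groups it was 7. It was 5 with 1 probe set per gene and between 0 and 15 without single arrays. The methods' t-test called 79 members in this step without adjustment and 0 after Benjamini-Hochberg. For the Gam1 effect, the methods' t-test without adjustment called 1 member in early gastrula embryos, 5 in late gastrula embryos and 2 in early neurula embryos, and the block with a spread over all stages called 3 at early neurula. Without single arrays, 0 members were called at any stage, and the median Gam1 effect lay between -0.12 and 0.17 at early gastrula, where its sign depended on the array left out, between -0.17 and -0.03 at late gastrula, and between -0.13 and -0.02 at early neurula. For the methods' t-test, the spread over all stages alone, the filter on level, 1 probe set per gene and the fits without single arrays, no share over all probe sets is given. The same holds for members called lower over the course in fits with the replicate block. Whether the member counts under these settings differ from that share is therefore not shown. Leaving out both arrays of a replicate number was added after seeing the data. Of 168 counts under alternatives, 147 stayed within 1.5 times the main count and 21 did not. For the Gam1 effect at each stage and for each stage difference the main count was 0. The main fits there called few or no probe sets at all, so counts that stayed at 0 add no support. The replicate block within a stage changed no other call count by over 1.5 times. The cause of these changes was not tested. No detection limit for single members was computed.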
